A study of Mus musculus with 21 samples.

Results

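Secreted and intracellular inhibitors of Wnt signalling were followed across skin and inguinal lymph nodes of Ifnk TG and WT mice, as 10 of the 55491 genes in the deposited tables. The genes were Wif1, Sfrp1, Sfrp2, Sfrp4, Frzb, Dkk2, Dkk3, Nkd1, Nkd2 and Axin2, each taken by its symbol. They were chosen by name with earlier results in view: the values of Wif1 and Nkd1 in nodes of UVB-exposed TG mice selected these genes for attention, so both are only described, without a test, wherever TG nodes are compared. Their tests in WT nodes took the spread from a fit of all node libraries, TG included. Ifnk TG mice carry a transgene for the type I interferon IFNκ under the keratin 14 promoter, which drives it in the epidermis. It was made on C57Bl/6 and backcrossed to BALB/c, and WT mice were BALB/c. Skin of 12-month-old mice gave 4 libraries of lesional TG skin (L), 2 of non-lesional TG skin (NL) and 3 of WT skin, all without UVB. Inguinal nodes, which drain the skin, gave 3 libraries each from untreated WT, untreated TG, UVB-exposed WT and UVB-exposed TG mice. UVB was given to shaved mice at 250 mJ/cm2 per exposure and 310 nm on 3 days a week for 2 weeks, with harvest 2 weeks later. The labels put all libraries in batch 1 and give neither the sex nor the body site, nor the age of the mice that gave nodes, nor whether libraries came from separate mice, so p-values measure the spread between libraries. Xist, which is transcribed from the inactive X chromosome of females, was at 0.319 CPM (counts scaled to a library of 1000000) in NL replicate 3, at 0.132 in L replicate 6, at 78.9 to 179 in the other 7 skin libraries and at 0.0811 to 1.46 in every node library, so that Xist-low skin libraries were found among TG and not WT mice.

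Wnt proteins signal through Frizzled receptors and Lrp co-receptors, and in the canonical branch they stabilise β-catenin, which acts with Tcf and Lef factors on target genes. Secreted antagonists stop the signal outside the cell. Wif1 and the Sfrp family, which includes Frzb, bind Wnt proteins, while Dkk2 binds the Lrp co-receptors and Dkk3 is a divergent relative whose role in the pathway is less clear. Feedback inhibitors act inside the cell: Nkd1 and Nkd2 bind Dishevelled, and Axin2 is a scaffold of the complex that destroys β-catenin, and Nkd1 and Axin2 are known to be induced by Wnt itself. In skin the pathway is known for driving hair follicle growth.

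The sequence just before the start site is shown for the 4 genes on which the comparisons turn: Wif1, Nkd1 and Nkd2, which had higher levels in lesional skin and lower mean counts in nodes after UVB, and Axin2, which did not move with them. The sequences come from RefSeq starts on build GRCm38.p6, run 5′ to 3′ on the strand of the gene and hold no base of an annotated exon of that gene. Capitals mark the letters CAAAG or their complement CTTTG, the core shared by Tcf and Lef recognition sequences.
Wif1 (chr10:121033754-121033959, plus strand): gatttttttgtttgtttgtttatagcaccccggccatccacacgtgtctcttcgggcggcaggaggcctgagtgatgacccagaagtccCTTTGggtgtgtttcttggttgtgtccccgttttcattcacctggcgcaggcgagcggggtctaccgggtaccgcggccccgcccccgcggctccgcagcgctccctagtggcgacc
Nkd1 (chr8:88527383-88527632, plus strand): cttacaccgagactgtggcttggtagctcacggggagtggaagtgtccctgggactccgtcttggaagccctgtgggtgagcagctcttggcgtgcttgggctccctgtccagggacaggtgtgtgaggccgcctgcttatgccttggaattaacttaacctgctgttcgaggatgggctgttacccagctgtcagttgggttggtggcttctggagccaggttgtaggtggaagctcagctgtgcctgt
Nkd2 (chr13:73847632-73847881, minus strand): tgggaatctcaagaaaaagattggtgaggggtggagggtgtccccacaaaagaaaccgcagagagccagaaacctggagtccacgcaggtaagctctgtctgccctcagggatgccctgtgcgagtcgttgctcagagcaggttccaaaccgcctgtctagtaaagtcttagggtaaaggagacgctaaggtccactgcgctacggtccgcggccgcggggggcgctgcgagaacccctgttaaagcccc
Axin2 (chr11:108920099-108920348, plus strand): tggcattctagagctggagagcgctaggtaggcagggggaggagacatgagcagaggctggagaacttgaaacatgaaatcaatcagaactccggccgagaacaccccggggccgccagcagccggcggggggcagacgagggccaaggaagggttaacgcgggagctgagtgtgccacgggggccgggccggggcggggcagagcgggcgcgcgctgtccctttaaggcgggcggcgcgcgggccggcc
The windows are rich in G and C, from 58.4% in Nkd1 and Nkd2 to 69.2% in Axin2. RefSeq starts were listed for 7 of the 10 genes (not for Sfrp1, Sfrp4 and Dkk3). In the 250 bases before those 7 starts, the core CAAAG on either strand was found once each in Wif1, Frzb and Dkk2, and it occurred in 48.6% of all 32851 listed windows of that length. Longer forms that extend the core at its left end (ATCAAAG with the variants AACAAAG, further TTCAAAG, lastly TACAAAG) were in 0 of the 7 windows against 14.8% of all. An interferon-type pair of GAAA with 2 bases between its copies was in 0 of the 7 against 2.98% of all. By GENCODE M21 on GRCm38, the gene bodies lie at chr10:121033960-121100650 for Wif1, chr8:88521354-88594884 for Nkd1, chr13:73818534-73847631 for Nkd2 and chr11:108920349-108950783 for Axin2. The RefSeq start of Nkd1 used for the window lies inside that gene body, after an earlier GENCODE start. The antisense gene Gm11670 overlaps Axin2, the antisense gene Gm26771 overlaps Sfrp2, and the pseudogene Gm8062 overlaps Nkd2, each from the opposite strand. The gene model Gm45496 overlaps Nkd1 on the same strand. Whether counting used the strand is not given in the sources used here, and whether the overlaps include exons of both genes was not examined. How far reads of these pairs could be told apart is therefore not known.

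Library totals were 40499078 to 56511276 counts in skin and 27599809 to 36428435 in nodes, and 19101 genes in skin and 16173 in nodes passed the filter on low counts. All 10 genes passed in skin and 8 of 10 in nodes, where Sfrp1 and Sfrp4 did not. Ifnk had 5 to 14 counts in the L libraries, 6 and 0 in the NL libraries and 0 in every WT skin and node library. A floor of 3 counts corresponded to 0.0811 to 0.109 CPM in nodes and covers counting error only. Node libraries held 8 T cell genes at 2412 to 3105 CPM and 8 B cell genes at 1485 to 2839 CPM in sum, and skin libraries held 10 epidermal genes at 9574 to 27283 CPM. In bulk tissue, fewer cells of a type and less RNA per cell cannot be told apart.

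Compared per kilobase of exon, the level in WT skin was highest for Sfrp4 and Dkk3, at 12.1 ± 3.26 and 10.1 ± 2.24 CPM per kilobase (SD, n = 3). Sfrp2 at 9.10 ± 2.55, Sfrp1 at 7.40 ± 0.932, Frzb at 5.79 ± 1.02 and Axin2 at 5.73 ± 0.545 CPM per kilobase followed, and the ranges of neighbours in this order overlapped. Nkd2 at 3.41 ± 0.815 and Dkk2 at 3.03 ± 0.284 CPM per kilobase also overlapped, as did Wif1 at 1.75 ± 0.0279 and Nkd1 at 1.75 ± 0.389. WT nodes without UVB differed in kind. Axin2 stood at 7.36 ± 0.895 CPM per kilobase, and the other 9 genes lay between 0.0125 and 0.303, led by Sfrp2 and Wif1. The 7 secreted members were thus scarce transcripts in nodes beside Axin2.

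In lesional skin, 7 of the 10 genes differed from WT skin at an adjusted p under 0.05, against 43.1% of all genes tested in this comparison (23.0% higher and 20.2% lower). The 7 went both ways. Wif1, Sfrp1, Nkd1 and Nkd2 rose, and Sfrp2, Sfrp4 and Frzb fell, so that Wnt-binding antagonists were found on either side and both Naked cuticle genes on one. Dkk2, Dkk3 and Axin2 did not pass the test.

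Among the secreted Wnt-binding proteins, Wif1 measured 21.7, 16.7, 17.9 and 22.7 CPM in the L libraries, 4.47 and 4.17 in NL and 4.17, 4.27 and 4.30 in WT. The L libraries were all far above the other 5, which were nearly equal among themselves. Among all genes, every L library lay above every WT library in 26.0% and below in 23.4%. Wif1 was 4.64-fold higher in L than in WT (log2 2.21 ± 0.15 SE, adjusted p = 6.03e-05, edgeR). Sfrp1, the most abundant Sfrp transcript per kilobase in lesional skin, measured 56.3, 117, 70.4 and 77.5 CPM in L and 29.2, 31.0 and 37.0 in WT. It was 2.48-fold higher (log2 1.31 ± 0.26 SE, adjusted p = 0.00461), without overlap between the groups.

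The other 3 Wnt-binding genes fell. Frzb measured 2.97, 0.419, 0.815 and 1.19 CPM in L against 16.1, 22.4 and 17.7 in WT and 14.1 and 12.7 in NL. Every L library lay well under every other skin library, and Frzb was 13.7-fold lower in L than in WT (log2 -3.78 ± 0.55 SE, adjusted p = 0.00115), the largest change among the 10 genes. Sfrp4 measured 9.14, 0.074, 11.6 and 6.69 CPM in L, the second of these from 3 counts, against 34.9, 59.5 and 57.2 in WT. The groups did not overlap, but 1 library decided the spread: the difference was log2 -2.87 ± 0.93 SE (adjusted p = 0.0369), and without L replicate 5 it was log2 -2.47 with an adjusted p of 0.000614. The Sfrp4 call was lost without WT replicate 8, 9 or 10 or L replicate 7 (adjusted p from 0.0614 to 0.0900) and without the low-count filter (adjusted p = 0.0983). Sfrp2 measured 10.5, 3.58, 8.37 and 4.38 CPM in L and 19.8, 25.0 and 14.1 in WT, a fall of 2.92-fold (log2 -1.55 ± 0.38 SE, adjusted p = 0.0112).

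The Dickkopf genes showed no difference that passed the test. Dkk2 spread from 5.64 to 26.0 CPM over the L libraries, around the WT range of 10.1 to 12.1, and its difference was log2 0.38 with a 95% interval of -0.62 to 1.39. Dkk3, one of the most abundant of the 10 genes in skin, measured 37.4 to 66.9 CPM in L and 28.3 to 42.4 in WT (log2 0.48, 95% interval -0.04 to 1.00, adjusted p = 0.119). Neither interval reached the size of the change in Frzb, but that of Dkk2 held a rise as large as that of Sfrp1 (log2 1.31).

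Both Naked cuticle genes rose. Nkd1 measured 11.9, 22.4, 19.2 and 35.4 CPM in L against 9.92, 7.46 and 6.48 in WT, and was 2.80-fold higher (log2 1.48 ± 0.36 SE, adjusted p = 0.0107). Nkd2 measured 38.6, 53.0, 63.7 and 84.9 CPM in L against 19.5, 12.0 and 17.8 in WT, and was 3.65-fold higher (log2 1.87 ± 0.29 SE, adjusted p = 0.00155). For both genes L replicate 4 was the lowest L library and L replicate 7 the highest, and neither gene overlapped between L and WT. Axin2, the general Wnt feedback gene, did not follow them: it measured 25.2, 33.1, 31.9 and 29.7 CPM in L and 34.5, 31.7 and 28.5 in WT, and its 95% interval for L against WT was log2 -0.34 to 0.19.

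**Figure D1:**
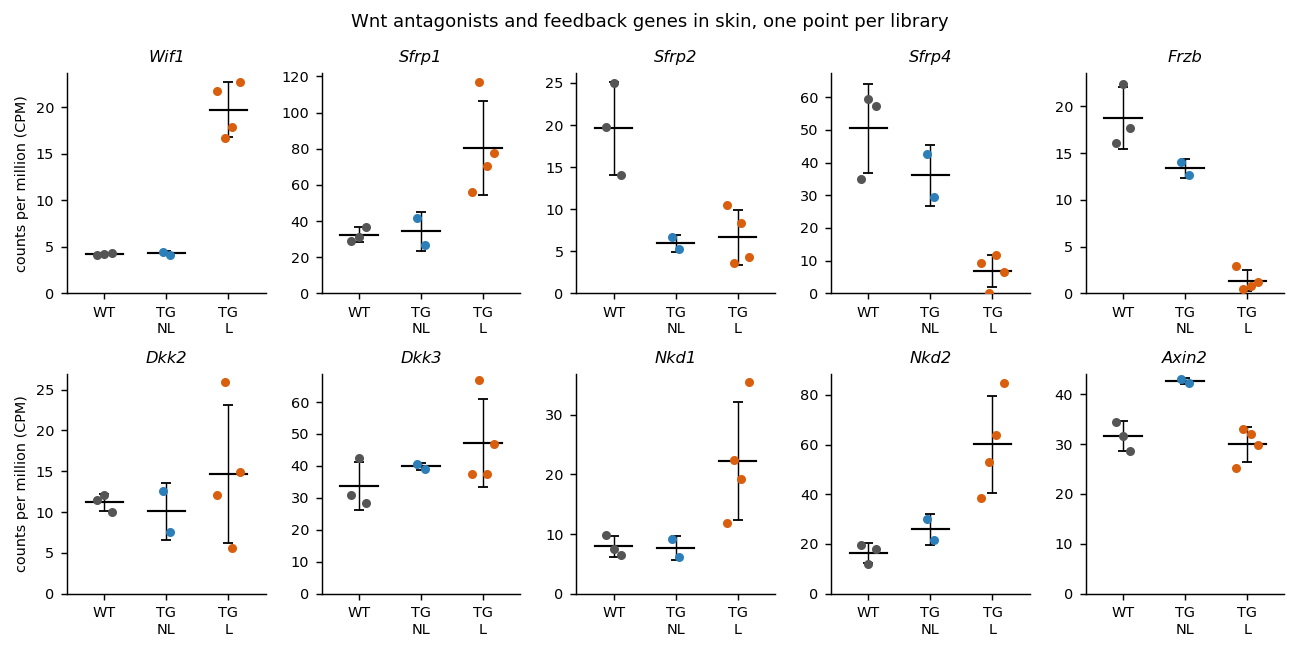
CPM of each gene (vertical axis, from 0) in WT, NL and L skin, one point per library, with the group mean as a line and the SD as a bar, cut at 0. Wif1 sits near 4.2 CPM in all WT and NL libraries and between 16.7 and 22.7 in L, while Frzb is under 3 CPM in every L library and over 12 in the others.

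Within TG mice, 6 of the 10 genes differed between L and NL skin, against 25.0% of all genes tested. Wif1 was 4.56-fold higher in L (log2 2.19 ± 0.18 SE, adjusted p = 0.000424) and Frzb was 9.79-fold lower (log2 -3.29 ± 0.58 SE, adjusted p = 0.00589). Sfrp1 (log2 1.23), Nkd1 (log2 1.54) and Nkd2 (log2 1.22) were higher in L, with adjusted p values of 0.0208, 0.0292 and 0.0299. Axin2 was lower in L, at 30.0 ± 3.49 CPM (n = 4) against 43.1 and 42.3 CPM in NL (log2 -0.51 ± 0.13 SE, adjusted p = 0.0223). These comparisons share the L libraries with those against WT. The calls for Sfrp1, Nkd1, Nkd2 and Axin2 rested on both NL libraries: without NL replicate 2 their adjusted p values were 0.0506 to 0.130, and without NL replicate 3 they were 0.132 to 0.200. In these fits the lone NL library is assumed to vary like the other groups. Nkd2 also missed the threshold without L replicate 6 (adjusted p = 0.0547) and with the Xist level as a covariate (adjusted p = 0.0508). Sfrp4 was lower in every L library than in either NL library (29.6 and 42.6 CPM), as were 24.7% of all genes, but missed the threshold (log2 -2.39, adjusted p = 0.112), and without L replicate 5 it passed (log2 -1.98, adjusted p = 0.00429).

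Between NL and WT skin, 0 of the 10 genes passed, and 0% of all genes did. At an unadjusted p under 0.05, edgeR gave 1465 of 19101 genes, and DESeq2 called 80. Sfrp2 was the member farthest from 0, at 6.65 and 5.25 CPM in NL, below all WT libraries (log2 -1.72, 95% interval -2.82 to -0.62, unadjusted p = 0.00650, adjusted p = 0.530, edgeR across all genes), and DESeq2 gave it an adjusted p of 0.0434. In L relative to NL skin its difference was log2 0.17 (95% interval -0.82 to 1.16). Axin2 was higher in both NL libraries than in any WT library (log2 0.43, 95% interval 0.12 to 0.75, adjusted p = 0.568). Nkd2 was also higher in both NL libraries, at 30.2 and 21.5 CPM, than in any WT library (log2 0.65, adjusted p = 0.693, edgeR). Frzb was lower in both NL libraries, at 14.1 and 12.7 CPM, than in any WT library (log2 -0.49, adjusted p = 0.857, edgeR). The 95% intervals of Nkd2 and Frzb held 0. Among all genes, both NL libraries lay above every WT library in 18.6% and below in 16.3%. Wif1, by contrast, differed between NL and WT by log2 0.02 with an interval of -0.36 to 0.41.

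**Figure D2:**
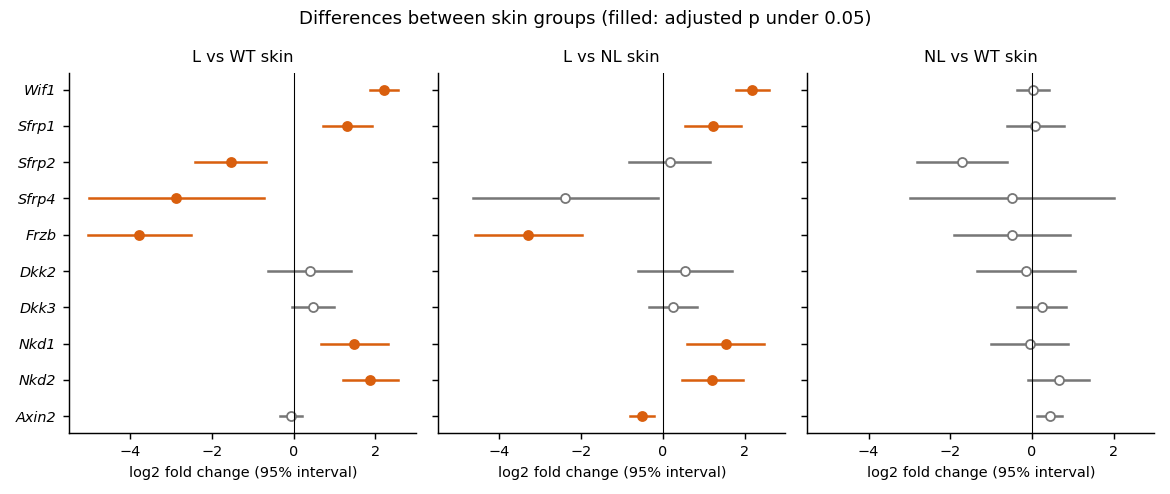
Log2 fold change (horizontal axis) of each gene with its 95% interval for the 3 skin comparisons, filled where the adjusted p was under 0.05. Wif1, Sfrp1, Nkd1 and Nkd2 lie right of 0 and Frzb left of 0 in both comparisons of L, and no gene is filled for NL against WT.

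Cell type markers moved with the L libraries. The summed level of 10 hair shaft keratins and related genes was 1601 to 4947 CPM in L, 11.0 to 14.3 in NL and 8.71 to 10.9 in WT, and all 10 rose. All 8 hair matrix genes and all 6 melanocyte genes rose as well, and 8 of 10 follicle sheath genes, while the other 2 fell. Skeletal muscle genes summed to 27.3 to 7728 CPM in L against 26810 to 42148 in the other skin libraries, and 11 Hox genes of the trunk to 23.9 to 45.0 CPM against 135 to 172, with 7 of the 11 lower than in WT. Fibroblast genes summed to 3668 to 8353 CPM in L and 4985 to 7852 in WT, with 0 of 10 higher and 2 lower. The dermal papilla list rose in 3 of 10 genes. Adipocyte genes summed to 876 to 3510 CPM in L and 5458 to 9409 in WT, with 4 of 8 lower and 1 higher. Smooth muscle genes summed to 352 to 776 CPM in L and 2104 to 2832 in WT, with 3 of 8 lower and 2 higher, and blood endothelial genes to 122 to 237 CPM against 268 to 394, with 4 of 8 lower. T cell genes, at 33.8 to 79.5 CPM in L and 28.2 to 40.1 in WT, were higher in 5 of 8. Epidermal genes summed to 9574 to 27283 CPM in L, 19344 to 21197 in NL and 10617 to 13082 in WT. Of these 10 genes, 4 were higher in L than in WT, and 0 were called between NL and WT by edgeR. Against WT, sebaceous genes were higher in L in 3 of 8 and lower in 0, and lymphatic genes were lower in 2 of 7 and higher in 0. Over the L libraries, hair shaft genes were lowest in replicate 4, which also had the lowest Sfrp1, Nkd1 and Nkd2 but not the lowest Wif1. The part of follicle stage, tissue makeup or body site in the results was not tested.

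The rest of the pathway was read from 6 lists. Ligands rose in 8 of 17 tested genes and fell in 2 (median log2 0.30, against 0.06 for all genes), beside 23.0% of all genes higher and 20.2% lower. Wnt11 rose from 4.16 to 26.1 CPM (log2 2.65, adjusted p = 5.65e-05), and Wnt8a, at 0 in every WT library, reached 0.466 CPM in L, at least 6.53-fold higher against a floor of 3 counts per library. Wnt2 fell from 10.9 to 1.47 CPM (log2 -2.88, adjusted p = 0.00698) and Wnt9a from 7.93 to 4.97 CPM (log2 -0.67, adjusted p = 0.0471). Receptors rose in 7 of 16 and fell in 2 (median log2 0.74). The co-receptor Ror2, which binds Wnt5a, rose from 2.51 to 11.0 CPM (log2 2.13) and Fzd5 from 12.4 to 42.7 CPM (log2 1.79). Fzd9 fell from 6.83 to 0.719 CPM (log2 -3.23) and Fzd4 from 297 to 59.5 CPM (log2 -2.32). In the R-spondin module, whose ligands and Lgr receptors amplify Wnt signals, 3 of 9 rose and 1 fell (median log2 0.37). Rspo4 rose from 0.808 to 4.33 CPM (log2 2.42) and Rspo2 from 0.145 to 0.671 CPM (log2 2.20), while Lgr6 fell from 42.3 to 26.9 CPM (log2 -0.66). The call was lost for Wnt9a without L replicate 4 or 6 or any one WT library, for Lgr6 without L replicate 6 or 7 or WT replicate 8 or 10, and for Rspo2 without WT replicate 8 or 9. That of Wnt9a was also lost without the low-count filter (adjusted p = 0.0538, edgeR).

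Antagonists outside the 10 also went both ways, with 3 of 12 higher and 3 lower (median log2 -0.12). Sostdc1, a secreted antagonist of Wnt and BMP signals in the follicle, rose from 12.5 to 48.0 CPM (log2 1.94, adjusted p = 0.0191), and Notum, a Wnt deacylase, from 1.09 to 3.58 CPM (log2 1.72). Sfrp5 fell from 43.7 to 5.81 CPM (log2 -2.91, adjusted p = 0.0198) and Shisa3 from 2.42 to 0.614 CPM (log2 -1.96). Sfrp5 thus fell along with Sfrp2, Sfrp4 and Frzb, leaving Sfrp1 as the one family member that rose. The Sfrp5 call was lost without WT replicate 8 (adjusted p = 0.0729), that of Sostdc1 without WT replicate 9 or 10, and that of Shisa3 without L replicate 4 or 7 or WT replicate 9 or 10. Without the low-count filter, the calls of Sfrp5 and Sostdc1 were lost as well (adjusted p of 0.0576 and 0.0510, edgeR). Among core components and factors 8 of 21 rose and 5 fell (median log2 0.11). Lef1 rose from 0.161 to 21.4 CPM (log2 7.05, adjusted p = 0.000589) and Tcf7 from 7.58 to 26.4 CPM (log2 1.80), while Pygo1 fell from 26.4 to 6.56 CPM (log2 -2.01) and Dvl1 from 66.4 to 37.9 CPM (log2 -0.81). Target genes other than the 10 rose in 10 of 14 and fell in 1 (median log2 1.29). They were led by Lef1 and by Bambi, a pseudoreceptor that rose from 2.76 to 61.8 CPM (log2 4.49, adjusted p = 0.000116), and Ascl2 fell from 5.17 to 1.87 CPM (log2 -1.47). Lef1 is also on the hair matrix list and Lgr5 and Sox9 on the follicle sheath list, so these counts are not independent of the markers above.

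Against NL skin, where 13.2% of all genes were higher and 11.8% lower, 6 of 16 receptors were higher in L and 2 lower. Of 21 core genes 6 were higher and 3 lower, of 14 targets 5 higher and 1 lower, of 9 R-spondin genes 2 higher and 2 lower, and of 17 ligands 2 higher and 1 lower. Of the named genes that the comparison with WT did not single out, Wnt5a was at 56.5 CPM in L and 14.9 in NL (log2 1.92, adjusted p = 0.00690) and Lgr5 at 21.4 and 6.41 CPM (log2 1.74, adjusted p = 0.00423). Rspo3 was lower in L, at 3.33 against 8.77 CPM (log2 -1.40, adjusted p = 0.0143). Without NL replicate 3 none of these 3 calls held (adjusted p of 0.0696, 0.0532 and 0.0886), and Rspo3 also missed the threshold without NL replicate 2 (adjusted p = 0.0839). Of the 12 other antagonists 0 passed by edgeR, with 3 at an unadjusted p under 0.05 and 2 called by DESeq2. Between NL and WT, 0 genes of the 6 lists passed by edgeR or DESeq2, with 4 ligands, 3 receptors, 2 R-spondin genes, 2 core genes and 3 targets at an unadjusted p under 0.05.

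**Figure D3:**
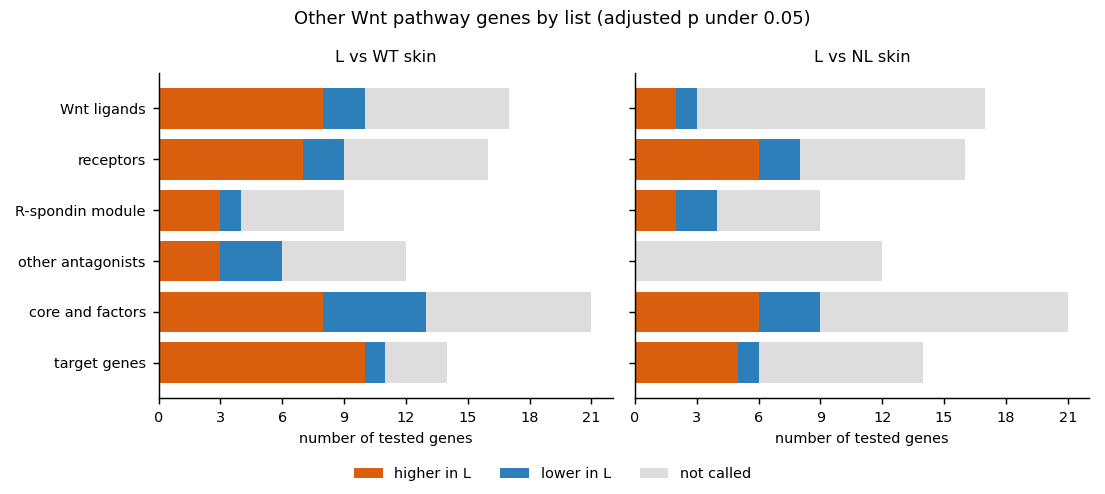
Number of tested genes (horizontal axis) of each Wnt list that were higher, lower or not called in L against WT and L against NL skin. Target genes had the largest share called higher against WT, 10 of 14, and other antagonists had 3 higher and 3 lower against WT and 0 against NL.

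In nodes, Wif1 fell after UVB in WT mice. It had 24, 23 and 17 counts without UVB and 3, 2 and 2 after it, that is 0.724, 0.721 and 0.522 CPM against 0.0901, 0.0727 and 0.0613. The groups did not overlap, and with all 3 irradiated libraries at or under the floor of 3 counts per library the level was at least 6.76-fold lower. The test passed (adjusted p = 0.0234, edgeR). Its spread was fitted over all node libraries, including the TG libraries for which Wif1 was noticed. Wif1 was the 1 of 8 genes tested that passed, and 4.98% of all genes tested did, with 2.06% that fell. As Wif1 was chosen for its values after UVB in TG nodes, neither the call nor this count is independent of that choice. The call was lost without WT replicate 3, WT UVB replicate 8 or WT UVB replicate 9 (adjusted p of 0.107, 0.122 and 0.0730). DESeq2 gave no adjusted p for Wif1, having set it aside for its low mean.

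Nkd1 came next in WT nodes, with 31, 15 and 28 counts (0.936, 0.470 and 0.860 CPM) without UVB and 11, 8 and 4 (0.330, 0.291 and 0.123 CPM) after it. All irradiated libraries were lower, but the difference missed the threshold (log2 -1.60, 95% interval -2.59 to -0.61, adjusted p = 0.0613), which it passed when only these 2 groups were fitted (adjusted p = 0.0366). Dkk3 had 19, 18 and 11 counts without and 7, 2 and 7 with UVB (log2 -1.52, 95% interval -2.88 to -0.17, adjusted p = 0.148). Nkd2 had 13, 16 and 3 counts against 2, 0 and 7 (log2 -1.75, adjusted p = 0.196), with overlap. In 3 of the 8 tested genes, Wif1, Nkd1 and Dkk3, every irradiated WT library was lower than every other WT library, as in 17.3% of all genes. Of these 3, only Dkk3 was not chosen for its values in UVB-exposed TG nodes, so the count cannot be weighed against that share. Axin2 showed no such fall: at 1137 to 1638 counts in these libraries, its difference was log2 0.27 with an interval of -0.06 to 0.61.

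In TG nodes Wif1 had 36, 51 and 22 counts (0.973, 1.45 and 0.634 CPM) without UVB and 2, 1 and 6 (0.0582, 0.0348 and 0.184 CPM) after it, and Nkd1 had 42, 53 and 33 counts (1.14, 1.504 and 0.951 CPM) against 8, 3 and 5 (0.233, 0.104 and 0.153 CPM). These are the values for which both genes were noticed, and they are given without a test. Wif1 was 10.5-fold lower (log2 -3.39) and Nkd1 7.10-fold lower (log2 -2.83) after UVB on the fitted scale, and without TG UVB replicate 12 the value of Wif1 was log2 -4.34. Nkd2 had 16, 26 and 19 counts against 3, 8 and 9, again without overlap, but missed the threshold (log2 -1.42, 95% interval -2.96 to 0.12, adjusted p = 0.560). Every irradiated TG library was lower than every other TG library in 7.11% of all genes. By edgeR 0% of all genes passed for UVB in TG nodes, with 1507 at an unadjusted p under 0.05 and 137 called by DESeq2, and 0 of the 6 members tested there passed by either tool. Axin2 differed by log2 -0.10 (95% interval -0.43 to 0.24).

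**Figure D4:**
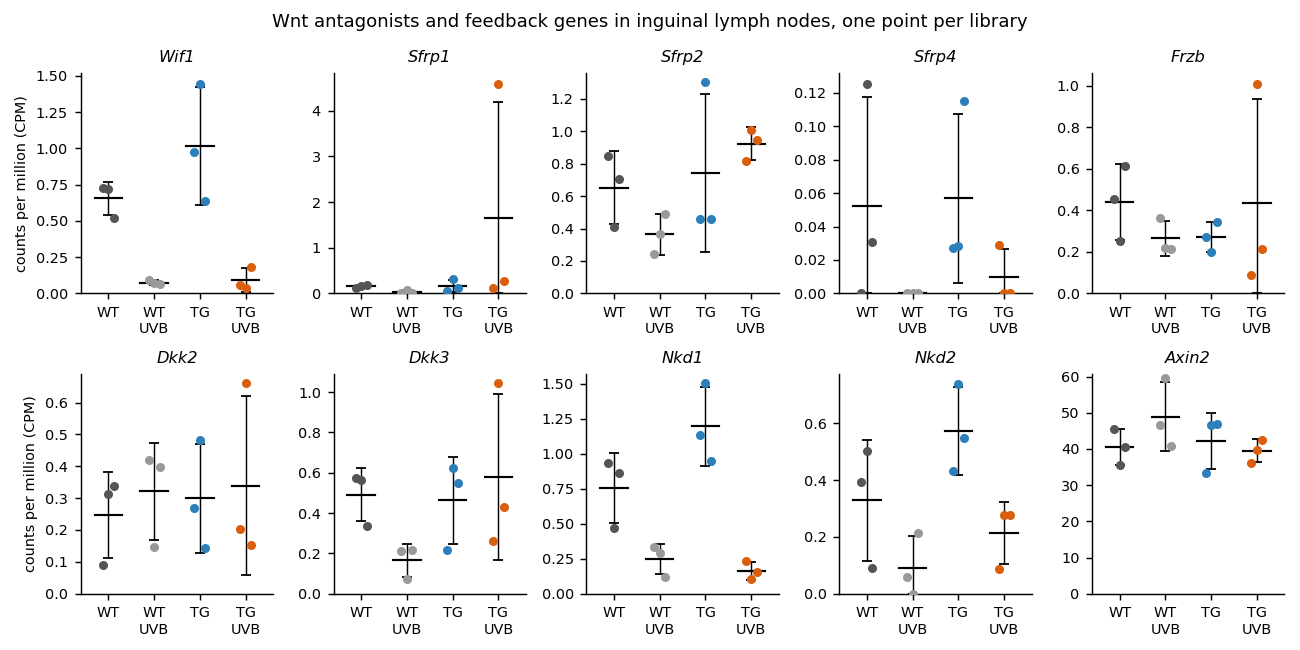
CPM of each gene (vertical axis, from 0, with its own scale) in the 4 node groups, one point per library, with the mean as a line and the SD as a bar, cut at 0. Wif1 and Nkd1 are lower in both UVB groups than in both untreated groups, Axin2 stays between 33.4 and 59.6 CPM, and Sfrp1 is high in a single TG UVB library.

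Stromal markers were also lower after UVB. The summed level of 10 node stroma genes was 102 to 133 CPM in WT and 119 to 257 in TG nodes without UVB, and 29.7 to 78.4 and 37.6 to 121 after it. All 10 had fitted values under 0 in both genotypes, with medians of log2 -1.32 and -0.90, and 0 passed the test by edgeR. At an unadjusted p under 0.05 there were 6 of the 10 in WT and 4 in TG nodes, and DESeq2 called 4 and 1. Genes of other stromal lists did pass in WT nodes: smooth muscle with 3 of 6 lower and 1 higher, blood endothelium with 2 of 8 lower, fibroblasts with 1 of 10 lower and adipocytes with 1 of 2 lower, and their medians were log2 -1.47, -0.92, -1.23 and -2.33. In TG nodes 0 genes of these lists passed by edgeR, with 4, 1, 3 and 0 at an unadjusted p under 0.05 and 1, 0, 1 and 0 called by DESeq2. Lymphatic genes summed to 55.7 to 149 CPM without and 18.1 to 64.8 CPM with UVB. By edgeR 0 of these 7 genes passed in either genotype, and DESeq2 called 2 in WT and 0 in TG nodes. The node stroma list shares Des with the smooth muscle list and Pdpn and Ccl21a with the lymphatic list. It shares Col1a1, Col3a1, Pdgfra and Pdgfrb with the fibroblast list, so these lists are not independent. TG UVB replicate 12 had stroma genes at 121 CPM, within the untreated range of 102 to 257 CPM, with Wif1 at 0.184 and Nkd1 at 0.153 CPM. TG replicate 5 had the highest stroma level and the highest Wif1 and Nkd1 of the 12. Node suspensions were passed through a cell strainer before lysis, and how much of the stroma this kept in each sample, and its part in the levels of Wif1 and Nkd1, was not tested. Skin cells were scarce in every node library, with 10 epidermal genes at 2.36 to 4.06 CPM in sum.

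**Figure D5:**
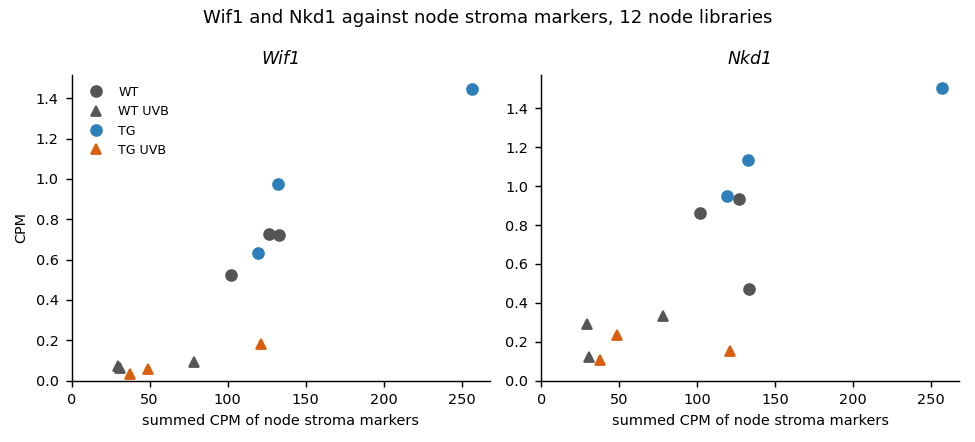
Wif1 and Nkd1 (vertical axes, CPM) against the summed CPM of 10 node stroma markers in the 12 node libraries. Irradiated libraries (triangles) lie under every untreated library on both axes, except TG UVB replicate 12 on the horizontal axis. That library had 121 CPM of stroma markers, with Wif1 at 0.184 and Nkd1 at 0.153 CPM. WT UVB replicate 7 had the next highest stroma level of the irradiated libraries, at 78.4 CPM.

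TG nodes were also set against WT nodes. Without UVB, 0 of the 6 members tested besides Wif1 and Nkd1 and 0% of all genes passed by edgeR, with 549 genes at an unadjusted p under 0.05 and 2 called by DESeq2. Nkd2 had a fitted value of log2 0.79 with an interval that held 0. Wif1 and Nkd1, whose untreated TG values are part of the contrast for which they were noticed, had fitted values of log2 0.63 and 0.66, given without a test. After UVB 0 of the 6 tested members and 0% of all genes passed, with 1131 genes at an unadjusted p under 0.05 and 19 by DESeq2. Sfrp2 had 28, 29 and 31 counts in TG and 8, 10 and 16 in WT nodes (log2 1.33, 95% interval 0.29 to 2.37, adjusted p = 0.673), and Dkk3 had 9, 30 and 14 against 7, 2 and 7 (log2 1.74, 95% interval 0.39 to 3.08, adjusted p = 0.673). Both genes were higher in all TG than in all WT libraries after UVB, as were 5.39% of all genes, without passing the test.

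The UVB effect was also compared between genotypes. For this difference of differences, 0 of 6 members and 0% of all genes passed by edgeR, with 881 genes at an unadjusted p under 0.05 and 8 called by DESeq2. Dkk3 came nearest (log2 1.83, 95% interval 0.01 to 3.64, adjusted p = 0.848), with fitted values of log2 -1.52 in WT and 0.31 in TG nodes. For Wif1 and Nkd1 the untested difference was log2 -0.33 and -1.23, and without TG UVB replicate 12 that of Wif1 was log2 -1.25.

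TG UVB replicate 11 stood apart in several members. Sfrp1, which did not pass the low-count filter, had 132 counts there and 0 to 11 in the other 11 node libraries. Frzb had 29 counts against 3 to 20 elsewhere, and Dkk3 had 30 against 2 to 22. The same library had the highest level of trunk Hox genes, 11.5 CPM against 1.59 to 6.22 in the others, and of the dermal papilla list, 36.5 CPM against 16.2 to 23.9, while its epidermal genes were at 3.31 CPM and its stroma genes at 37.6 CPM. Its Xist level was 1.46 CPM, against 0.0811 to 0.432 in the others. Without it, the fitted values of Frzb, Dkk2 and Dkk3 for UVB in TG nodes changed sign, to log2 -0.84, -0.74 and -0.42. Its part in the results was not tested further. Sfrp4 had 0 to 4 counts in every node library, at or near the floor.

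Genes whose pattern was most like Wif1 over the 12 node libraries were Dact1 (r = 0.970), Lix1l (0.959), Il7 (0.958), Cxcl13 (0.958) and Uap1 (0.947), by Pearson correlation of log2 CPM. Cxcl13 is a chemokine of follicular stroma and also on the stroma list. For Nkd1 they were Dpt (0.942), Prkg2 (0.915), Impdh1 (0.914), Sgce (0.913) and Wif1 itself (0.913), and Wif1 and Nkd2 had r = 0.690. Over the 9 skin libraries, those nearest to Wif1 were 2310079G19Rik (0.998), Ccdc34 (0.998), Crhr1 (0.995), Adamts17 (0.995) and Upk1b (0.995), and those nearest to Nkd1 were Cep164 (0.994), Gdpd5 (0.989), Lama5 (0.982), Tle3 (0.982) and Whrn (0.981). Axin2 followed another set, led by AC138676.1 (0.964), Myo1d (0.950), Hspb1 (0.939), Tm9sf4 (0.936) and Itpkb (0.934). Among the members in skin, Nkd1 and Nkd2 had r = 0.912, Wif1 and Nkd2 0.883, Sfrp4 and Frzb 0.845, and Sfrp1 and Frzb -0.948, while the r of Axin2 with the other 9 genes ran from -0.563 with Wif1 to 0.311 with Frzb. These correlations are descriptions, over libraries that share groups, tissue makeup and depth. In nodes they include the TG libraries after UVB for which Wif1 and Nkd1 were noticed, so a high r between Wif1 and Nkd1 follows in part from that choice.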

How the data were processed

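RNA of skin and inguinal lymph nodes was sequenced as poly-A libraries with 151 bp paired ends in 21 samples. The authors deposited expected counts per gene, estimated with RSEM 1.3.3 after alignment with STAR 2.7.8a to GRCm38, per the submitters' processing notes. Expected counts were rounded to whole numbers and tested separately per tissue with edgeR 4.0.16 in R 4.3.3: low counts were removed with filterByExpr, libraries scaled by TMM, and groups compared by the robust quasi-likelihood test with Benjamini-Hochberg adjustment over all genes tested. CPM use the TMM-scaled library size. Alternatives were DESeq2 1.42.0, RLE scaling, no filter, no robust estimation, Xist as a covariate, only the compared groups, and each library left out. Functions were tested on simulated data. The members, lists and tests were chosen with earlier results of these data known. Named genes were the 10 members, up to 2 higher and 2 lower genes per Wnt list and comparison without overlap between groups, and the 5 genes most correlated with Wif1, Nkd1 or, in skin, Axin2. Replicates of a group differed by more than sampling noise.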

Additional observations from a re-analysis of the deposited data

How the results depend on the processing

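Of the 10 members, 7 were called for L against WT skin with DESeq2, RLE scaling, robust estimation off, Xist as a covariate or only the compared groups, and 6 without the low-count filter. Leaving out a library gave 6 to 7. For L against NL the count fell from 6 to 3 with only the compared groups fitted. Sfrp1, Nkd1 and Nkd2 then had adjusted p values of 0.0541, 0.0645 and 0.0539 (edgeR). Without L replicate 5, Sfrp4 was called in addition (adjusted p = 0.00429, edgeR). Without L replicate 6, the call of Nkd2 was lost (adjusted p = 0.0547, edgeR). Genes called in the Wnt lists, 27 there, ranged from 8 to 28, with 8 and 10 without an NL library, where fewer samples were fitted. DESeq2 called 1 member for NL against WT (Sfrp2). For UVB in WT nodes, the count of 1 became 0 with DESeq2, which gave Wif1 no adjusted p, 2 with only the compared groups, and 0 to 1 on leaving out a library, and the count of list genes rose from 0 to 4 with DESeq2, 5 with only the compared groups and 0 to 1 on leaving out a library. DESeq2 also called 1 list gene each for UVB in TG nodes and for TG against WT nodes after UVB. Every other count of members or list genes that was 0 stayed at 0 under each alternative run. The cause was not tested.

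No called value changed sign. Signs changed beyond 1 SE only among values that missed the threshold or were untested. With Xist as a covariate, Frzb, Dkk2 and Dkk3 for UVB in TG nodes were at log2 -0.48, -0.66 and -0.35, and Frzb and Dkk2 for TG against WT after UVB at -0.55 and -0.86. On leaving out a library in turn, values ranged from -0.28 to 0.34 for Sfrp1 (NL against WT), from -0.51 to 0.43 for Sfrp2 (TG against WT without UVB), from -0.84 to 1.14 for Frzb, -0.74 to 0.66 for Dkk2 and -0.42 to 0.66 for Dkk3 (UVB in TG nodes), from -0.79 to 1.19 for Frzb, -0.84 to 0.39 for Dkk2 and -0.62 to 0.67 for Wif1 (TG against WT after UVB), and from -0.10 to 1.89 for Frzb (UVB between genotypes). Exon lengths from the longest transcript moved the level of Wif1 in WT skin to 1.85 and that of Axin2 to 7.41 CPM per kilobase in WT skin and 9.52 in WT nodes. No paired analysis was possible because the labels' sample numbers run through each tissue, so that the groups compared share no number. The NL group held 2 libraries, and the node values of Wif1 after UVB and of Sfrp4 lay near the floor of 3 counts.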
